A study of Homo sapiens with 4 samples.

Results

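Among 30495 regions of histone acetylation found in both K562 cells given daunorubicin and untreated K562 cells, 2985 (9.79%) held a far higher place in the daunorubicin ranking of peaks than in the untreated one. Peaks of the 2 lists were paired where they overlapped by at least 1 bp and each overlapped only the other. Each peak's deposited score was then turned into a percentile among the 30495 paired peaks of its own list, with ties averaged. The members, called rising pairs here, were chosen by those percentiles: the daunorubicin peak stood at least 25 points above the untreated peak. By the same measure 2912 pairs (9.55%) stood at least 25 points lower with daunorubicin and are called falling pairs, and 24598 lay between.

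K562 is a human line grown from a chronic myeloid leukaemia in blast crisis, and the series concerned enhancers induced by daunorubicin and drug resistance in acute myeloid leukaemia. The 4 ChIP-seq libraries comprised 1 H3K27ac and 1 input library for cells kept in 1 uM daunorubicin during 18 h, and the same 2 for cells with no treatment. Daunorubicin is an anthracycline, which intercalates into DNA and traps topoisomerase II on it. With 1 library per condition no difference between conditions has a replicate check, and no test between them was possible. The daunorubicin H3K27ac list held 65118 peaks, the untreated list 38626, and the inputs 87 and 92. Of the daunorubicin peaks 30150 met no untreated peak, whereas 4140 untreated peaks met no daunorubicin peak. The remaining 4473 daunorubicin and 3991 untreated peaks overlapped in other ways and were left unpaired. Depth is unknown, because the lists carry no read counts. Of 11 genes that mark K562, 10 had a daunorubicin peak and 9 an untreated peak within 1 kb of an annotated end. HBE1 had none in either list, and HBG2 none in the untreated list. Of 13 markers of other cell types, 6 had such a peak with daunorubicin and 5 without it (CD3E, CD79A, CD3D, APOA1 and COL1A1 in both, ALB with daunorubicin only). Only 2 rising pairs overlapped an input peak, against 0 falling pairs and 26 of those between.

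H3K27ac is the acetylated form of lysine 27 of histone H3. Acetyltransferases such as p300 and CBP place it on nucleosomes beside active promoters and enhancers, and histone deacetylases remove it. Promoters of expressed genes usually carry tall, broad domains of the mark, while enhancers, which lie inside genes or between them and bind cell-type-specific factors, carry weaker and narrower ones. A peak score reflects enrichment over a whole population of cells, so that acetylation in more cells and more acetylation per cell cannot be told apart, and a change of rank is not a change in the amount of acetylation.

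Few rising pairs lay on promoters. Of 22199 annotated 300-base promoters of protein-coding genes (250 bases before to 50 after the start, RefSeq, GRCh38.p14, which is the build of the lists), 103 were overlapped by 89 rising pairs. Falling pairs overlapped 770 and all pairs together 9910. The 103 promoters had a median GC content of 62.7% and a median of 21 CpG dinucleotides. Those under falling pairs had medians of 70.3% and 31, those under any pair 66.7% and 28, and all promoters 62.3% and 21. In both measures the promoters under rising pairs were close to annotated promoters at large and below those that carried any pair.

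The 6 promoters below are those with the largest rise among the 29 that lay wholly inside the shared part of a rising pair, with 1 promoter per gene. They are shown because such promoters are the exception among rising pairs and because they span the range from CpG-rich to CpG-poor sequence. Each reads 5′ to 3′ on the gene's strand, and capitals mark letters that match one of the motifs listed after them. KLC3, a kinesin light chain gene, is on the plus strand (chr19:45340500-45340799), FAXDC2, of the fatty acid hydroxylase family, on the minus strand (chr5:154850554-154850853), and SPINK4, a Kazal-type protease inhibitor gene, on the plus strand (chr9:33239917-33240216). TMEM140, which encodes a transmembrane protein, is on the plus strand (chr7:135147822-135148121), AIM2, which encodes a sensor of cytosolic DNA, on the minus strand (chr1:159076717-159077016), and SLC22A15, a solute carrier gene, on the plus strand (chr1:115976263-115976562).
KLC3: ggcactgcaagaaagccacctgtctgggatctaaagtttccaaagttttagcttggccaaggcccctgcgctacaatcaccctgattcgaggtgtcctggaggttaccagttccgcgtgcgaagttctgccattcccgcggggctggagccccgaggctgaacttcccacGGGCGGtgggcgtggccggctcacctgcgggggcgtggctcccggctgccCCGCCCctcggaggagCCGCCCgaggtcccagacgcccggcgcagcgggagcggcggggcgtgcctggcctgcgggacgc
FAXDC2: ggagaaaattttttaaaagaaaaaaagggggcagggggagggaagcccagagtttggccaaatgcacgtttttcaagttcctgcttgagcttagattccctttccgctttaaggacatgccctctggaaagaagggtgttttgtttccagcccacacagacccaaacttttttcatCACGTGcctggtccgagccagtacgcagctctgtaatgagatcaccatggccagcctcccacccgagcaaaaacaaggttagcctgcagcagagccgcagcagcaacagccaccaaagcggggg
SPINK4: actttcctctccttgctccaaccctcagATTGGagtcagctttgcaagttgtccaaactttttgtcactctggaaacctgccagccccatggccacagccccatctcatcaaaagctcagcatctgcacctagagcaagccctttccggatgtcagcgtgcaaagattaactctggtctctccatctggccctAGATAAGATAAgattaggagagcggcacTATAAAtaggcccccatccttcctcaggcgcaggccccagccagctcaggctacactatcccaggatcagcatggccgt
TMEM140: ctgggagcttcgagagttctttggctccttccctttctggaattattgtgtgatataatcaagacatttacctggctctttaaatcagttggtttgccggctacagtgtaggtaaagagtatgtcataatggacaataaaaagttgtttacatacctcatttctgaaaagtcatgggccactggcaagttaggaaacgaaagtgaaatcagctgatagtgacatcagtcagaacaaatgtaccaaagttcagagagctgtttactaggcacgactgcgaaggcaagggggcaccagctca
AIM2: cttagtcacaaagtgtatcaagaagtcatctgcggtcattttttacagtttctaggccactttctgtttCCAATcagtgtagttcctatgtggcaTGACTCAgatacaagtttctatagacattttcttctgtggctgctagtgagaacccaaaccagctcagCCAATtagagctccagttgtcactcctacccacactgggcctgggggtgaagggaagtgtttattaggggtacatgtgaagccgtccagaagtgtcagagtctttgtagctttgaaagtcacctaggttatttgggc
SLC22A15: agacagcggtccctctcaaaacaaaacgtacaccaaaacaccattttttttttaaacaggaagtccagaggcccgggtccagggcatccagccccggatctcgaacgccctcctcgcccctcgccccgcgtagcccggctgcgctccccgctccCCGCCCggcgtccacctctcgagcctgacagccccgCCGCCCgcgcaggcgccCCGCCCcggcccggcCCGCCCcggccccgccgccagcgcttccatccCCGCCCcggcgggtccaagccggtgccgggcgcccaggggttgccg
The pair over KLC3 scored 105 with daunorubicin and 16 without it, and the one over FAXDC2 scored 101 with daunorubicin and 21 without it. At SPINK4 the scores were 121 with daunorubicin and 28 without it, and at TMEM140 86 with daunorubicin and 22 without it. AIM2 had 80 with daunorubicin and 22 without it, and SLC22A15 had 107 with daunorubicin and 31 without it. The promoter of SLC22A15 has 73% GC and 37 CpG, and that of KLC3 69% and 28, with several GC boxes each. The other 4 range from 42.7% to 53% GC with 2 to 8 CpG.

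Motifs were searched as exact letters on both strands of the 300 bases, and overlapping matches were all marked. The GC box (GGGCGG), bound by SP-family factors, was in 48.5% (95% Wilson interval 39.1 to 58.1) of the 103 promoters under rising pairs. It was in 81.2% (78.3 to 83.8) of those under falling pairs, 74.1% of those under any pair and 56.3% of all promoters. The AP-1 site (TGACTCA or TGAGTCA), bound by FOS and JUN dimers, was in 5.83% (2.7 to 12.1) under rising pairs, 2.86% under falling pairs, 2.81% under any pair and 4.01% of all. The GATA site (AGATAA), bound by the erythroid factor GATA1, was in 7.77% (3.99 to 14.6) under rising pairs, 4.29% under falling pairs, 4.43% under any pair and 7.91% of all. TATAAA was in 9.71% (5.36 to 17) under rising pairs, 4.29% (3.07 to 5.96) under falling pairs, 4.29% (3.91 to 4.71) under any pair and 9.47% of all. The E-box (CACGTG), bound by MYC and MAX, was in 4.85% under rising pairs, 11.4% under falling pairs, 10.1% under any pair and 8.34% of all. CCAAT was in 26.2%, 29.5%, 32.9% and 34.7% of the same sets. The ETS letters (CCGGAAGT) were in 4.85% (2.09 to 10.9) under rising pairs, 6.49% under falling pairs, 9.8% under any pair and 5.34% of all. The YY1 letters (AAGATGGCG) were in 1.94% (0.534 to 6.81) under rising pairs, 2.73% under falling pairs, 4.47% under any pair and 2.41% of all. The CRE (TGACGTCA) was in 2.91% under rising pairs, 2.6% under falling pairs, 3.29% under any pair and 2.26% of all, and NRF1 (GCGCATGCG) in 3.88% under rising pairs, 2.6% under falling pairs, 3.94% under any pair and 2.36% of all. The NF-kB letters GGACTTTCC were in 0 of the 103, an interval of 0 to 3.6%, and in 0.387% of all promoters. The interval of the GC box under rising pairs lies wholly below those of falling pairs and of any pair, and it holds the share of all promoters. The interval of TATAAA under rising pairs lies above that of any pair and overlaps that of falling pairs. It holds the share of all promoters. The intervals of AP-1 and GATA under rising pairs hold the shares under falling pairs, under any pair and of all promoters. Intervals throughout cover counting error only.

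The values that chose the members are given as a description. Rising pairs had a median score of 88 with daunorubicin (quartiles 68 and 120) and of 23 without it (18 and 32). Over all 30495 pairs the medians were 74 with daunorubicin and 50 without it. In percentiles the members' medians were 57.5 with daunorubicin and 17.9 without it. The scores of the 2 lists may differ in scale and are only set side by side. The rise had a median of 34.4 points (quartiles 29 and 42.5) and reached 81.2. It was under 30 points in 869 members, at least 40 in 951 and at least 50 in 334, and a further 1226 pairs lay between 20 and 25 points. At the threshold, 2 pairs with scores of 111 with daunorubicin and 41 without it were just inside at 25.0041 points, and 2 pairs with 101 with daunorubicin and 37 without it were just outside at 24.9926 points.

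**Figure D1:**
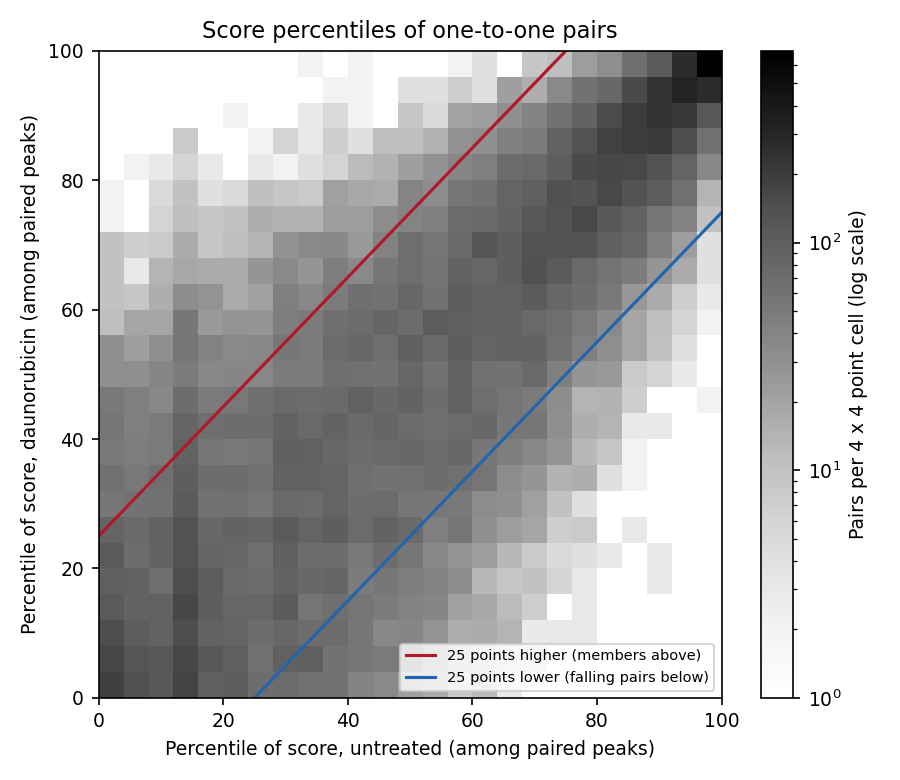
The score percentile with daunorubicin (vertical axis) against that without it (horizontal axis) for 30495 pairs, as the number of pairs per cell of 4 by 4 points on a log grey scale. The 2985 rising pairs lie above the upper line and the 2912 falling pairs below the lower one, and the members are thickest at low untreated percentiles.

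The members with the largest rise were distal sites with almost no rank in untreated cells. The first lay inside ATXN1 (chr6:16345858-16346140), which encodes a chromatin-bound repressor mutated in a spinocerebellar ataxia, and scored 170 with daunorubicin and 15 without it, a rise of 81.2 points. The second was 50602 bp from ERRFI1 (chr1:8076911-8078671), whose product is a feedback inhibitor of the EGF receptor, with scores of 219 with daunorubicin and 20 without it. The third was 44661 bp from FOXI1 (chr5:170154398-170154729), a forkhead factor gene, with 154 with daunorubicin and 13 without it. All 3 peaks were wider with daunorubicin, for instance 1163 bp against 283 bp at ATXN1 and 905 bp against 332 bp at FOXI1. Among the next were a site inside KLF9 (chr9:70398593-70399024), a Krüppel-like factor gene, with 137 with daunorubicin and 13 without it, and a site 29105 bp from OSMR (chr5:38816083-38816907), a subunit of the oncostatin M receptor, with 181 with daunorubicin and 20 without it. Sites inside MARCHF4, PLEKHM3, CLEC16A, PI16 and MAGI2 and sites near C2orf42 and ADAMTS20 completed the 12 of largest rise. Across these 12, daunorubicin scores were 130 to 219 and untreated scores 12 to 20, a gap that the choice of these 12 sets, and none of the 12 was at a gene end.

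The members with the highest daunorubicin scores were of another kind, because most already ranked high for members in untreated cells. In 6 of the 8 highest the untreated percentile was 60.9 to 73.9, and 73.9 was the maximum over all rising pairs. The threshold caps the untreated percentile that a member can have, so rises just past it are partly set by the choice of members. The top scores, 379 with daunorubicin in both cases, stood against untreated scores of 133 at an end of ZNF471 (chr19:56507716-56508154), a zinc finger gene, and 135 inside UBE2L3 (chr22:21555476-21556959), a ubiquitin-conjugating enzyme gene. Their rises were 25.8 and 25.6 points, just past the threshold. A site 26456 bp from CBFA2T3 (chr16:89003663-89004197), which encodes an ETO-family corepressor of blood cell genes, scored 296 with daunorubicin and 33 without it, a rise of 63.8 points. A site 24289 bp from VPREB1 (chr22:22269804-22270399), part of the pre-B cell receptor, scored 293 with daunorubicin and 42 without it. These 2 combined a high daunorubicin score with a rise above 50 points, unlike the other 6 of the 8 highest, whose rises were 25.6 to 37.1 points (ZNF471, UBE2L3, BATF3, MILR1, TMEM270 and EHBP1).

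**Figure D2:**
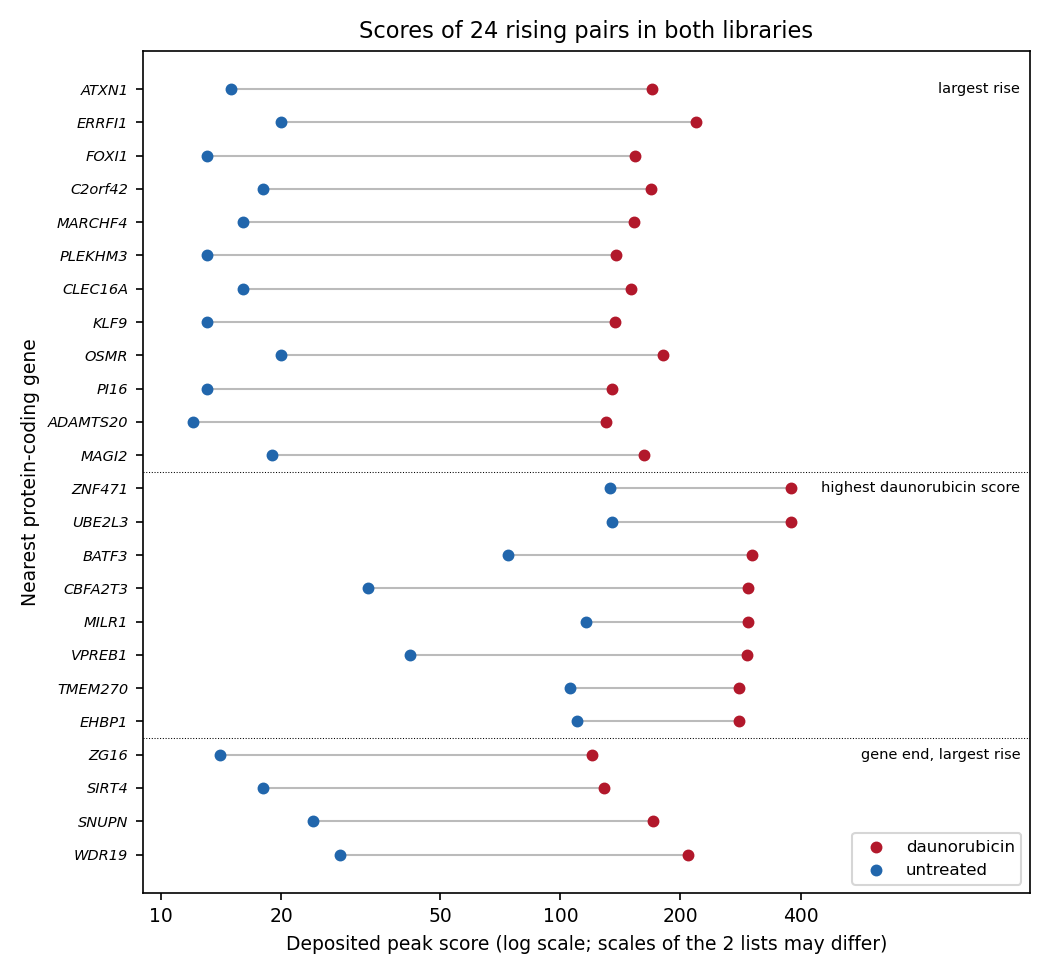
Deposited scores (log axis) with daunorubicin and without it for 24 rising pairs, named by the nearest protein-coding gene, with 1 point per library. The 12 of largest rise start from untreated scores of 12 to 20, while the highest daunorubicin score, 379, stands against untreated scores of 133 and 135.

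Width, which comes from the same 2 lists as the score, moved with it. Rising pairs had a median width of 1164 bp in the daunorubicin list and 622 bp in the untreated list. Falling pairs had 766 bp in the daunorubicin list and 746 bp in the untreated list, and all pairs together 1118 bp in the daunorubicin list and 884 bp in the untreated list. The daunorubicin peak was the wider one in 89.2% (88 to 90.3) of rising pairs, 50.8% of falling pairs and 69% of all pairs. In 67.8% of rising pairs the untreated peak lay wholly inside the daunorubicin peak, against 21.4% of falling pairs and 39.4% of all.

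Rising pairs lay away from gene ends. Only 471 of 2985 (15.8%, 14.5 to 17.1) had an annotated end of some gene within 1 kb, whereas 42.1% (40.3 to 43.9) of falling pairs and 42.1% (41.5 to 42.8) of the pairs between were. A gene end can be a promoter or a 3′ end, since the gene table gives no strand. A further 1694 rising pairs (56.8%) overlapped a gene elsewhere and 820 (27.5%) were intergenic, against 42.5% and 15.4% of falling pairs. Within 1 kb of an annotated start, the shares were 7.78% (223 of 2866) for rising pairs, 33% (922 of 2796) for falling pairs and 31.9% for all pairs. The median distance to the nearest start was 25538 bp for rising pairs, 9258 bp for falling pairs and 11903 bp for all pairs, and 10.8%, 5.87% and 7.41% of the same sets lay over 100 kb away. These measures use positions only and not the scores.

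Highly ranked pairs tend to be at gene ends, so pairs of like overall rank were also compared, in 4 bins of the mean of the 2 percentiles. In the bin from 0 to 25, 13.9% (11.3 to 17.1) of rising pairs and 18.1% (15.2 to 21.4) of falling pairs were at a gene end, with 12.5% of those between, and the intervals of rising and falling pairs overlapped. In the bin from 25 to 50, the shares were 14.7% for rising, 35.2% for falling and 18.3% for pairs between. In the bin from 50 to 75 they were 18% (15.4 to 21) for rising, 74% (70.6 to 77.1) for falling and 44.7% for pairs between. In the bin from 75 to 100, which held only 79 rising and 71 falling pairs, they were 30.4% (21.3 to 41.2) for rising, 83.1% (72.7 to 90.1) for falling and 83.5% for pairs between. From a mean percentile of 25 up, rising pairs were at gene ends less often than both other classes in the same bin. A rising pair needs an untreated percentile of 75 or less, and a falling pair a daunorubicin percentile of 75 or less. Pairs between reach 100 in both lists, so in the top bin they are not of like rank with the other 2 classes. Read the other way, 3.9% of gene-end pairs were rising and 10.2% falling, while 13.3% of gene-body pairs were rising and 9.71% falling, and 14.5% of intergenic pairs were rising and 7.91% falling.

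**Figure D3:**
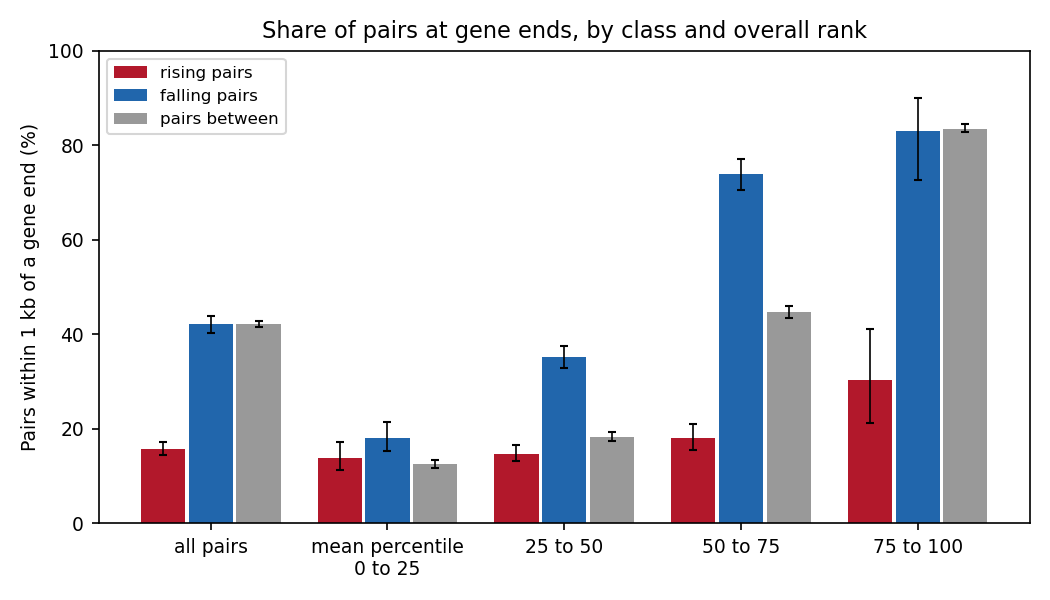
Share of rising, falling and intermediate pairs within 1 kb of an annotated gene end (vertical axis, percent), for all pairs and for 4 bins of the mean of the 2 percentiles, with 95% Wilson intervals. Bars of rising pairs stay between 13.9% and 30.4%, while those of falling pairs run to 83.1%.

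The members at gene ends differed little in score from the rest. Their median rise was 33.3 points, against 34.4 in gene bodies and 35 between genes, and their median daunorubicin scores were 94 at ends, 84 in bodies and 95 between genes. Of the 8 gene-end members with the largest rise, 4 were within 1 kb of an end of their nearest protein-coding gene. The first of them was 1000 bp from ZG16 (chr16:29783973-29784348), a lectin gene of secretory granules, with scores of 120 with daunorubicin and 14 without it. SIRT4 (chr12:120290755-120291346), a mitochondrial sirtuin gene, had a pair 434 bp from an end with 129 with daunorubicin and 18 without it. SNUPN (chr15:75598130-75598666), whose product carries snRNPs into the nucleus, had 171 with daunorubicin and 24 without it at an end, and WDR19 (chr4:39182596-39182971), an intraflagellar transport gene, had 209 with daunorubicin and 28 without it.

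The share of rising pairs was higher in gene-poor surroundings. The share of pairs that were rising was 12.6% (11.3 to 14.1) where no protein-coding gene lay within 100 kb, 12.8% with 1 gene, 10.5% with 2 to 3, 8.44% with 4 to 6, 5.74% with 7 to 10 and 3.78% (2.89 to 4.92) with 11 or more. Falling pairs ran the other way, with 7.79% (6.7 to 9.03) where there was no gene and 16.6% (14.8 to 18.7) with 11 or more. Among pairs away from gene ends the share of rising pairs was 13.5% with no gene and between 13.4% and 14.6% with 1 to 6, then 10.5% (8.93 to 12.3) with 7 to 10 and 8.99% (6.51 to 12.3) with 11 or more. Away from gene ends the share was thus lower only in the 2 classes of 7 or more genes.

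The share also differed between chromosomes. Rising pairs made up 12.8% (11.8 to 14) of the pairs of chromosome 1, 12.5% of chromosome 6 and 12.3% of chromosome 2, the 3 highest shares. The lowest were 4.86% (75 of 1544) on chromosome 19 and 5.52% on chromosome X. On chromosome 19, which is rich in genes, 56.2% of the pairs were at gene ends and 15.3% were falling. Within its gene bodies 7.71% (5.67 to 10.4) of pairs were rising and 17.8% falling. In gene bodies of all chromosomes 13.3% were rising and 9.71% falling, so the low share on chromosome 19 was not limited to gene ends. Of its intergenic pairs 9.78% (6.28 to 14.9) were rising, against 14.5% (13.6 to 15.4) on all chromosomes, and these intervals overlapped.

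**Figure D4:**
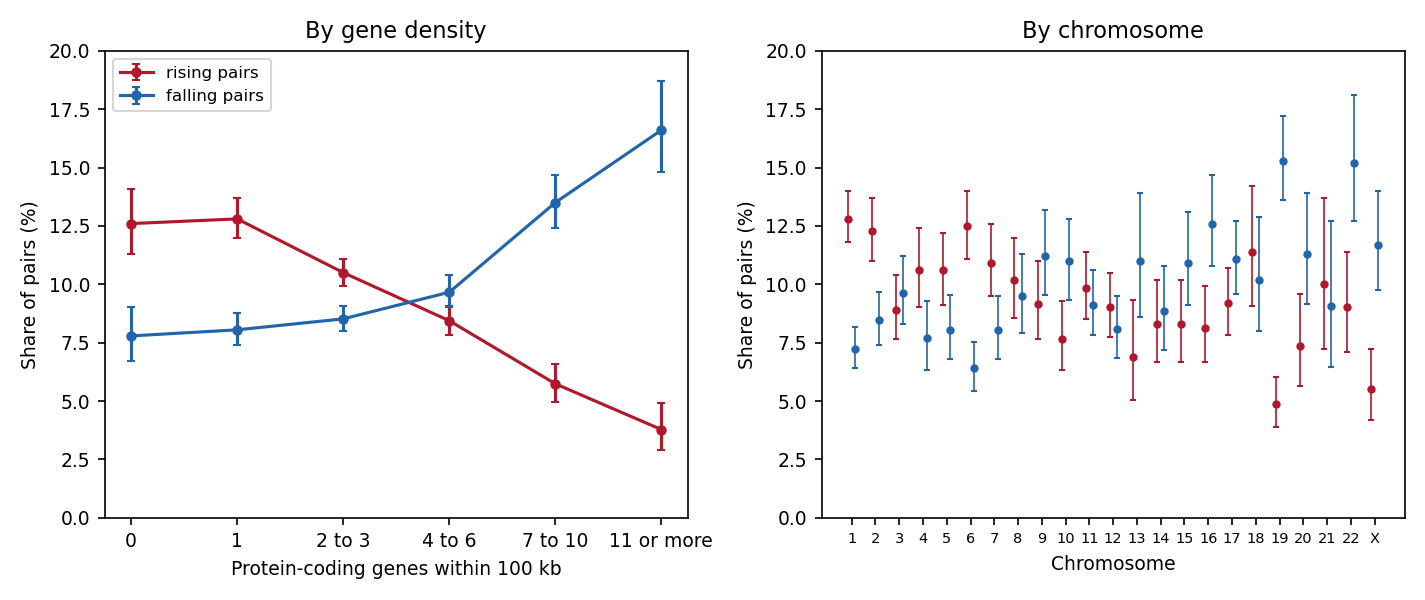
Share of pairs that were rising and falling (vertical axes, percent) by the number of protein-coding genes within 100 kb (left) and by chromosome (right), with 95% Wilson intervals. With 11 or more genes, 3.78% were rising and 16.6% falling, and chromosome 19 had 4.86% rising and 15.3% falling.

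The pair next to a rising pair was itself rising more often than over all pairs. The nearest other pair within 100 kb was itself rising for 15.2% (13.9 to 16.6) of the 2868 members with such a neighbour, against 7.41% (6.49 to 8.45) for falling pairs and 10.1% for all pairs. It was falling for 7.78% of rising pairs and 12.1% of falling pairs. The neighbour's median difference was 2.5 points for rising pairs and -2.4 points for falling pairs. These neighbours carry scores of the same 2 libraries, so they are no second measurement. Rising pairs lay mostly away from gene ends, where 13.3% of gene-body and 14.5% of intergenic pairs were rising. Neighbours were not compared at like location, so whether location accounts for the 15.2% was not tested. In all, 1423 rising pairs (47.7%) had another within 100 kb, against 1304 (44.8%) of the falling pairs. Chains of at least 3 with gaps of at most 100 kb numbered 178 in both classes, holding 635 rising and 686 falling pairs. Chains of at least 5 numbered 21 for rising and 37 for falling pairs, and the longest held 9 rising or 14 falling pairs.

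The longest chain ran over UBE2H, a ubiquitin-conjugating enzyme gene, ZC3HC1 and KLHDC10 (chr7:129825451-130102201). Of its 17 pairs 9 were rising and 0 falling, and none of the 9 was at a gene end. It also held 10 peaks found only in the daunorubicin list and 0 found only in the untreated list. Its strongest member, 5482 bp beyond UBE2H (chr7:129958442-129959395), scored 243 with daunorubicin and 42 without it, a rise of 51.1 points. The pair at the end of UBE2H beside it (chr7:129951973-129952955) scored 146 with daunorubicin and 291 without it, a difference of -13.5 points. The gene-end pair of highest score, at ZC3HC1, had 336 with daunorubicin and 352 without it. Within this stretch the 5 gene-end pairs ran from -20.5 to 13.4 points and the 9 members from 26.1 to 51.1 points, an order that the threshold fixes.

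**Figure D5:**
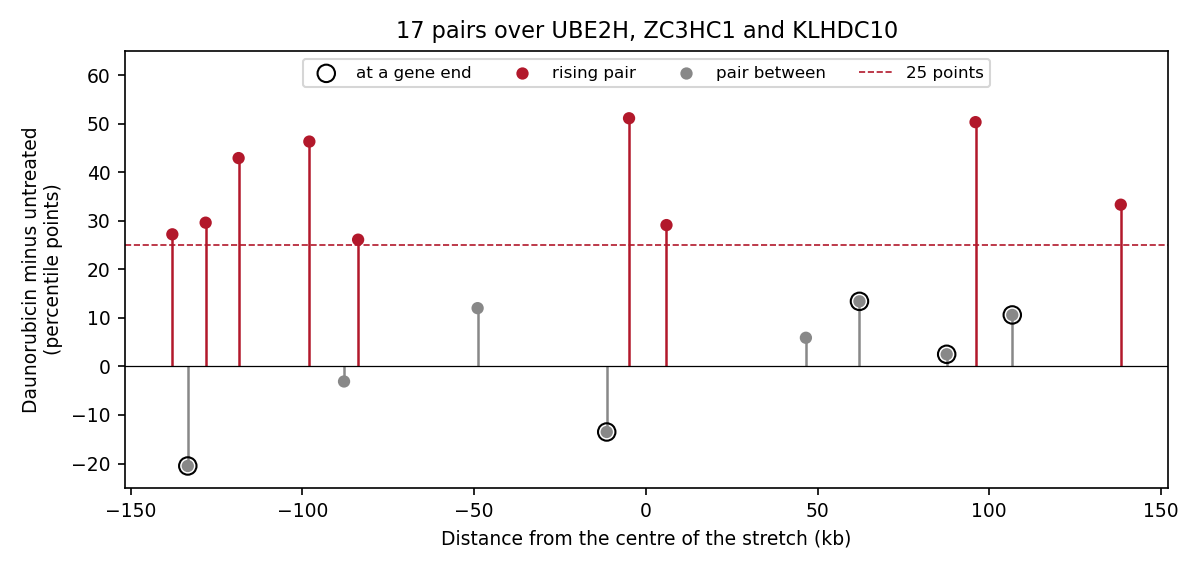
Daunorubicin minus untreated percentile (vertical axis, points) of the 17 pairs over UBE2H, ZC3HC1 and KLHDC10, by distance from the centre of the stretch (horizontal axis, kb), with gene-end pairs ringed. The 9 rising pairs lie above the dashed line at 25 points and none of them is ringed.

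Other chains were shorter. CDKAL1, which encodes a tRNA-modifying enzyme, held 7 rising pairs among the 10 of its chain (chr6:20669443-20878497), with 8 further peaks of the daunorubicin list alone and 1 of the untreated list alone. Their scores were 54 to 188 with daunorubicin and 11 to 60 without it. At LHFPL2 and at ARSB, an arylsulfatase gene (chr5:78578888-78780499), 7 of 11 pairs were rising, while the pair at the start of LHFPL2 scored 39 with daunorubicin and 65 without it, a difference of -35.6 points. A chain over TTC39A, EPS15 and OSBPL9 held 7 rising and 2 falling pairs of 21, with 2 of the 7 at gene ends. Of the 4 chains of 6, PPP1R12B, a regulatory subunit of myosin phosphatase, had 6 of 13 and the stretch around LIFR, the receptor of leukaemia inhibitory factor, 6 of 9, with 0 falling pairs in both. The other 2 chains of 6 had 10 pairs with 0 falling, over KMO, OPN3, CHML and WDR64, and 17 pairs with 1 falling, from CSTPP1 to MADD. By members inside the gene extended by 10 kb, MAML3, which encodes a Notch coactivator, led with 9 of 26 pairs, followed by CDKAL1 with 8 of 20, UBE2H with 6 of 10, PPP1R12B with 6 of 15 and RERE, a nuclear receptor coregulator gene, with 6 of 19. None of these 5 genes held a falling pair.

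The own ends of genes that held distal members were set beside those of all genes. Of 1498 protein-coding genes with a rising pair away from gene ends, 958 had a pair at an own end. The median difference of those end pairs was -2.7 points, 2.19% (1.44 to 3.33) of the genes had a rising pair there and 9.29% (7.61 to 11.3) a falling one. Over all 10254 genes with an end pair the values were -3.4 points, 2.26% (1.99 to 2.57) and 10.7%. The intervals for rising end pairs overlapped.

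Peaks of the daunorubicin list with no untreated partner were common around all classes of pairs. Such a peak lay within 10 kb of 45.7% (43.9 to 47.5) of rising pairs, 40.2% (38.4 to 42) of falling pairs and 40.4% of all pairs. Within 2 kb the order was turned, with 12.4% for rising and 14.5% for falling pairs, and likewise within 10 kb in the bin of mean percentile 0 to 25, with 46.7% for rising and 49.8% for falling pairs. Within 50 kb the shares were 89.1% for rising and 78.8% for falling pairs. Untreated peaks with no daunorubicin partner lay within 10 kb of 9.65% of rising and 10.4% of falling pairs.

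For genes, a pair was counted where it lay in the gene or within 10 kb, and a pair can count for several neighbours. Scores given for a listed gene are those of such a pair. The pair may lie outside the gene or nearest to another one, as for AFF1 (C4orf36), ITGA2B (GPATCH8) and CDH1 (CDH3). Of 13804 protein-coding genes with any pair, 1878 (13.6%) had a rising pair and 2934 (21.3%) a falling one, and the median difference over their pairs was -1 points. The 28 gene lists held 487 entries that all matched by symbol, and their counts rest on the same scores that chose the members. A gene can hold both kinds of pair, as ALDH6A1, IFI6, EPB41, MXI1 and KAT6B did besides others named with their list.

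The ALDH1 genes, which encode aldehyde dehydrogenases and are named in the series title, had no rising pair. Of the 6 genes 5 had a pair, 7 pairs in all with a median difference of -12.8 points. The pair at ALDH1A1 scored 27 with daunorubicin and 26 without it, or -12.8 points. ALDH1A2 had 1 falling pair at its start, 50 with daunorubicin and 70 without it, and 2 within the gene that scored 64 and 58 with daunorubicin and 41 and 29 without it, at 0.4 and 10.4 points. ALDH1B1 had 125 with daunorubicin and 295 without it (-20.4 points), and ALDH1L2 had 46 with daunorubicin and 43 without it (-15.9 points). The pair counted for ALDH1A3 had 121 with daunorubicin and 146 without it (-4.3 points). It lay at chr15:100918672-100920040, beyond the gene, which spans 100879831 to 100916626, and overlapped an end of another protein-coding gene. Of the other ALDH genes 2 of 9 (22.2%, against 13.6% of all genes) had a rising pair, ALDH6A1 and ALDH7A1, and 2 (22.2%, against 21.3%) a falling one.

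Among p53 targets 5 of 18 genes (27.8%, against 13.6% of all genes) had a rising pair and 4 (22.2%, against 21.3%) a falling one. The median was 1.5 points over 50 pairs. These genes held more pairs each than genes at large, 50 over 18 against 32145 over 13804, which gives more chances of a call. Whether p53 took part was not tested. CDKN1A, the cyclin-dependent kinase inhibitor p21, had 127 with daunorubicin and 34 without it (chr6:36678823-36680217). FDXR, a mitochondrial reductase gene, had 98 with daunorubicin and 23 without it, and XPC, which recognises damaged DNA, had 90 with daunorubicin and 22 without it. DDB2 and BBC3 were the other 2, and FDXR and BBC3 held 1 falling pair each as well. Among damage response genes 3 of 24 (12.5%, near the 13.6% of all genes) had a rising pair, which were ATM, the kinase activated by double-strand breaks, with 89 with daunorubicin and 16 without it, TOP1 and TP53BP1. Immediate early genes had a rising pair in 4 of 19 (21.1%), which were BTG2, IER3, IER5 and SGK1, and a falling one in 1 (5.26%). AP-1 and ATF factors had 1 of 11 (9.09%), at BATF, and 4 (36.4%) with a falling pair (FOSL1, JUNB, MAFG and MAFK), with a median of -17.1 points over 23 pairs.

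The next lists are set beside the same shares of all genes, 13.6% with a rising and 21.3% with a falling pair. Among stress and survival genes, the NRF2 pathway had 2 of 19 (10.5%) with a rising pair. There GCLC, whose product limits the rate at which glutathione is made, had 146 with daunorubicin and 36 without it. The BCL2 family had 2 of 13 (15.4%) with a rising pair, MCL1 and BAK1, and 5 (38.5%) with a falling one. It held 41 pairs over 13 genes, against 32145 over 13804 genes at large, which gives more chances of a call. With a rising pair, heat shock chaperones had 2 of 15 (13.3%) and the stress and unfolded protein list 2 of 14 (14.3%). Interferon response genes had 1 of 16 (6.25%, IFI6) and NF-kB pathway genes 0 of 18. Drug transport and anthracycline metabolism had 4 of 14 (28.6%) with a rising and 5 (35.7%) with a falling pair, both above the shares of all genes. These genes held 43 pairs over 14 genes, against 32145 over 13804, which gives more chances of a call. There ABCC4, an efflux transporter gene, had 117 with daunorubicin and 18 without it (chr13:95208094-95208583), CBR3, a carbonyl reductase gene, had 75 with daunorubicin and 19 without it, and POR had 55 with daunorubicin and 17 without it. The fourth, SLC29A1, a nucleoside transporter gene, shared its pair with HSP90AB1 (222 with daunorubicin and 99 without it). The retinoid pathway had 2 of 9 (22.2%) with a rising pair, at RARG and RDH11, and it too held more pairs per gene, 27 over 9.

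K562 cells partly express genes of the red cell lineage. Of erythroid transcription factors 2 of 14 (14.3%, near the 13.6% of all genes) had a rising pair, and 9 of 14 (64.3%, against 21.3%) a falling one, with a median of -9.6 points over 63 pairs. These genes held more pairs each than most, 63 over 14 genes against 32145 over 13804, which gives more chances of a call. RUNX1 had 2 rising and 2 falling pairs of 11 and GFI1B 1 rising and 1 falling of 7, while GATA1, TAL1, KLF1 and ZFPM1 were among those with a falling and no rising pair. Red cell membrane and iron genes had 4 of 15 (26.7%) with a rising pair and 2 (13.3%) with a falling one. The median was 5 points over 52 pairs, again more pairs per gene than over all genes. EPB41, a protein of the membrane skeleton, had 116 with daunorubicin and 29 without it. A pair 8127 bp from SLC40A1, the iron exporter ferroportin, had 64 with daunorubicin and 15 without it, and GYPB and ANK1 were the other 2. Globin and haem genes had 3 of 19 (15.8%; HBE1, PPOX and UROS) and 4 (21.1%) with a falling pair, among them HBA1, HBA2 and HBZ, both near the shares of all genes. The pair at HBE1, the embryonic beta-like globin gene, lay 5150 bp from it (chr11:5275095-5275751) and scored 74 with daunorubicin and 21 without it. Megakaryocyte genes had 2 of 8 (25%) with a rising pair, ITGA2B among them. The markers of K562 had 1 of 10 (10%, HBE1 again) with a rising pair and 3 (30%; GATA1, HBZ and TAL1) with a falling one. The markers of other cell types had 1 of 10 (10%, CDH1) with a rising pair and 0 with a falling one.

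Among regulators of growth and chromatin, cell cycle genes had 4 of 22 (18.2%) with a rising and 4 (18.2%) with a falling pair. Over all genes the shares were 13.6% and 21.3%. CDK6, a kinase of the G1 phase, held 3 rising pairs, the largest with 88 with daunorubicin and 10 without it (chr7:92635005-92635389), and 1 falling pair. CCND3 and E2F3 likewise held both kinds. The MYC network had 2 of 11 (18.2%) with a rising pair, MYCL and MXI1, and 5 (45.5%) with a falling one. Histone methylation genes had 6 of 26 (23.1%) with a rising pair, EZH1, KDM2B, KDM6B, KMT2C, KMT2E and SETD2, and 3 (11.5%) with a falling one. Histone acetylation genes had 2 of 22 (9.09%) with a rising pair, HDAC8 and KAT6B, and 6 (27.3%) with a falling one. Elongation factors had 3 of 19 (15.8%) with a rising pair and 7 (36.8%) with a falling one, AFF1 and CDK9 among the 7. A pair 6408 bp from ELL2 had 124 with daunorubicin and 18 without it (chr5:95878360-95878690). The rising pair counted for AFF1 lay outside it, inside C4orf36, and had 96 with daunorubicin and 21 without it. A rising pair inside AFF4 had 61 with daunorubicin and 14 without it. AFF1 held 1 rising and 2 falling pairs of 12. The MYC network held 39 pairs over 11 genes, histone methylation 68 over 26, histone acetylation 70 over 22 and elongation 56 over 19. Over all genes there were 32145 over 13804, so these 4 lists had more chances of a call per gene. Cytosolic ribosomal protein genes had 1 of 26 (3.85%, RPS16) with a rising pair and 6 (23.1%) with a falling one. Replication-dependent histones had 0 of 19 and oxidative phosphorylation genes 0 of 20, with 3 (15.8%) and 2 (10%) genes that had a falling pair.

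The hairpins of 3 miRNAs lay in rising pairs, MIR10399, MIR4487 and MIR6132, against 11 in falling pairs and 89 in the pairs between. Over all pairs 9.79% were rising and 9.55% falling, and of gene-end pairs 3.9% were rising and 10.2% falling. The counts are too small to show a trait of miRNA genes.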

How the data were processed

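H3K27ac ChIP-seq and input libraries of K562 cells, 1 per condition, were grouped by treatment and antibody as labelled. MACS2 2.1.1, Bowtie2 2.3.4.3 and deepTools 3.2.1 are the tools, and hg19 and hg38 the builds, that appear in the submitters' processing notes. Parameters, the peak threshold and the score's formula were not given in the sources used here. Each library had its own deposited peak list, with an integer score of at least 10 for every peak. Scales of the lists may differ, and the score was ranked within a list only. Sequence names were those of hg38, and coordinates are on that build, counted from 1.

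Pairing, percentiles, shares and 95% Wilson intervals were computed with Python 3.11.15, numpy 2.4.6, pandas 2.3.3 and scipy 1.17.1. On simulated lists of 3000 and 2500 peaks the pairing found the 496 pairs that bedtools 2.31.1 found. In a separate simulation, whose 2 lists had equal scores apart from planted rises, all 200 planted rising pairs were found. That simulation held no noise, so it checks the code only. Gene ends came from 59679 RefSeq genes of GRCh38.p14 and starts from a promoter table that holds no chromosome 8, so start shares leave it out. Nothing was computed over the sequence of the peaks, since no genome was used here.

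The members and gene lists were chosen with earlier results of these data known. Named genes were the nearest protein-coding gene within 100 kb of the 12 members of largest rise, the 8 of highest daunorubicin score and the 8 gene-end members of largest rise, skipping neighbours within 100 kb. To these were added the 5 genes with most members, up to 3 genes per list by largest rise and the ALDH1 genes. Some genes that this rule named are not reported here. Other genes named, stretches and falling genes included, were chosen after their values were seen. Alternatives were other pairings, thresholds, percentiles, score minimums, gene-end definitions, windows and bins of overall rank. 1 rising pair lay outside chromosomes 1 to 22, X and Y.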

Additional observations from a re-analysis of the deposited data

How the results depend on the processing

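The number of rising pairs, 2985, was 5859 at a threshold of 15 points, 1426 at 35 points and 7525 with percentiles taken within each whole list, where 824 pairs were falling, and the cause was not tested. Of the members, 2945 were also rising when all overlapping peaks were merged into regions and 1635 with an overlap of 50% of both peaks. The gene-end share of rising pairs, 15.8%, stayed below that of falling pairs in every alternative run: 19.1% (58.6% of falling pairs) with 50% overlap, 17.4% at 15 points, 23.8% within 2.5 kb, 7.3% for protein-coding genes only, 13.9%, 18% and 30.4% in the bins of mean percentile 0 to 25, 50 to 75 and 75 to 100, 7.78% for starts only, 17.4% in merged regions and 19.2% with scores of at least 24 in both lists. The share of rising pairs wider with daunorubicin, 89.2%, was 80.8% with 50% overlap, 84.6% and 91.8% at 15 and 35 points, and 91%, 86.6% and 82.3% in the same 3 bins. The share whose next pair was rising, 15.2%, was 13.7% with 50% overlap, 24.8% and 7.04% at 15 and 35 points, and 31% with whole lists. Of the listed genes with a pair, 13.9% had a rising one (20.8% a falling one), and 25.1% and 8.27% did at 15 and 35 points, 25.9% within 50 kb and 1.15% at the gene's own ends. The share near a peak called only with daunorubicin, 45.7%, was 48.2% at 35 points and 89.1% within 50 kb, and was below that of falling pairs within 2 kb (12.4% against 14.5%) and in the bin from 0 to 25 (46.7% against 49.8%), and the cause was not tested. Of 136 named members, which were chosen by these scores, 89 had a value with 50% overlap (6 of them under 25 points), 65 with the higher score (0 under), and 136 each with merged regions (0 under) and whole lists (4 under). Alternatives with starts, merged regions, whole lists or the higher score for these shares, and those for the next pair, were added after seeing the data. No paired analysis was possible because each condition had 1 H3K27ac library. Replicates and depth were lacking, so variation between cultures and the effect of depth on score and width were not measured.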
